A study of Mus musculus with 6 samples.

Results

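The crossover genes described here are Msh4, Msh5, Mlh3, Rnf212, Ccnb1ip1 and Tex11, chosen by name and matched by symbol to the Ensembl identifiers of the mRNA count table. All 6 were found among its 21310 genes. The mRNA came from pachytene spermatocytes, male germ cells in the long stage of meiosis in which crossovers mature, isolated from mouse testes. There was 1 library from Alkbh1-/- mice, which lack exon 6 of Alkbh1 and were backcrossed to a C57/BL6 background, and 1 library from wild type (WT) mice. Alkbh1 encodes a dioxygenase of the AlkB family, and the deletion is not described as limited to germ cells. No age is given, and no label says how many animals went into a library. Small RNA of WT, Alkbh1-/- and TzfpGTi/GTi spermatocytes, 4 libraries in all, was not used here.

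In meiosis, programmed DNA breaks are repaired from the homologous chromosome, and some repair intermediates are turned into crossovers, which hold the homologues together until they separate. MSH4 and MSH5 are relatives of the bacterial mismatch repair protein MutS that do not repair mismatches. They bind each other and stabilise the branched DNA intermediates. MLH3 is a relative of MutL and part of the nuclease that cuts the stabilised intermediates into crossovers. RNF212 and the product of Ccnb1ip1, HEI10, are RING finger proteins linked to SUMO and ubiquitin that select which intermediates keep MSH4 and MSH5. TEX11 is encoded on the X chromosome, is the mouse relative of yeast Zip4, and promotes both synapsis and crossing over.

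The promoters of the MutS pair, of Rnf212 and of Mlh3 are shown. Among the crossover genes described, the MutS pair and Rnf212 had the highest ratios between the libraries and Mlh3 the lowest. Each run holds 250 bases before and 50 after the annotated start, from RefSeq on GRCm38.p6. These positions are of another build than mm9, the build named for the submitters' data. Capitals mark letters that match 3 motifs searched on both strands. MYB (CAACNG or TAACNG) and the core of the STRA8-MEIOSIN motif (CCTCAG) belong to activators of meiotic genes, and the E-box (CACGTG) is bound among others by MAX and MGA, which repress germline genes outside the germ line. No marked match overlaps another.
Msh4, chr3:153904842-153905141, minus strand: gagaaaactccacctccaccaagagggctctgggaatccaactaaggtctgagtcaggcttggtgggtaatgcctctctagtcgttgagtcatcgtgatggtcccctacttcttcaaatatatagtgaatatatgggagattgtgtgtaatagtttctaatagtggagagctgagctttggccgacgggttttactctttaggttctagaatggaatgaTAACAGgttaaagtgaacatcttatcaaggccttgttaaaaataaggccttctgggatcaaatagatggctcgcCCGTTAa
Msh5, chr17:35046573-35046872, minus strand: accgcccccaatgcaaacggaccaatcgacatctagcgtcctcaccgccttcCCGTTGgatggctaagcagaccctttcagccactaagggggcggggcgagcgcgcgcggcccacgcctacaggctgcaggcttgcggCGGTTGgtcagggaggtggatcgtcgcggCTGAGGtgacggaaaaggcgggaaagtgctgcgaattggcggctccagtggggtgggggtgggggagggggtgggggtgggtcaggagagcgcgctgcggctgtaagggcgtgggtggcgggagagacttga
Rnf212, chr5:108774978-108775277, minus strand: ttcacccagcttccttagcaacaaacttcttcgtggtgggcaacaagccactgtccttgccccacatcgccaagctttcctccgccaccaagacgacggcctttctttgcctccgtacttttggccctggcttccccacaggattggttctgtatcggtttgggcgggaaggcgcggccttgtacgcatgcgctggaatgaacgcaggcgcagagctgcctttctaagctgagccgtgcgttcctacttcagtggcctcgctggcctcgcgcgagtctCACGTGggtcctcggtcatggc
Mlh3, chr12:85270550-85270849, minus strand: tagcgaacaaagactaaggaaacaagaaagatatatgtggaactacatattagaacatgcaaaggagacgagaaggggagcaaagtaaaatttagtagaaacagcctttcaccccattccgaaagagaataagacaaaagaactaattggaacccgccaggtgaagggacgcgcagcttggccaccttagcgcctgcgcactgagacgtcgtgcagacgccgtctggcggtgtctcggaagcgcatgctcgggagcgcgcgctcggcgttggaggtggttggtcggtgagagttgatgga

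Among the 5 crossover genes with a promoter in the RefSeq table, Msh4, Msh5 and Ccnb1ip1 held a MYB match, as did 49.7% of all 32851 promoters. Msh5 and Ccnb1ip1 held the STRA8-MEIOSIN core, found in 26.8% of promoters, and Rnf212 held an E-box, found in 7.15%. The Mlh3 promoter, given for 1 of its annotated starts, held no match to any of these letters, and neither did the other Mlh3 entry. The GC content was 43.3% for Msh4, 67.3% for Msh5, 59.7% for Rnf212 and 51.7% for Mlh3, against a median of 52.7% over all promoters. A match is a stretch of letters, not a bound site, and Tex11 has no entry in the table.

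The libraries held 10229260 counts for Alkbh1-/- and 8222671 for WT. Alkbh1 itself had 209 counts in Alkbh1-/- and 171 in WT, but a deletion of 1 exon is not checked by reads counted over all exons. The mid to late pachytene marker list was present at 11509 and 12176 CPM in Alkbh1-/- and WT (CPM, counts relative to the library total, after TMM scaling), so the defining markers of the labelled cell type were present in both. Sertoli cell markers were present as well, at a summed 1599 CPM in Alkbh1-/- and 3245 CPM in WT. With 1 library per genotype there is no replicate error and no test. The 95% intervals given below cover counting error only, and PCR copies are not independent molecules. Genotype and preparation cannot be told apart. In bulk RNA, fewer cells of a type and less RNA per cell cannot be told apart either.

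Of the crossover genes, 5 of 6 were higher in the Alkbh1-/- library than in the WT library, and Mlh3 was slightly lower. Their log2 ratios, log2((Alkbh1-/- CPM + 1)/(WT CPM + 1)), had a median of 0.48, against -0.02 over the 12189 genes that reached 5 CPM in either library. Of these background genes, 47.9% were above 0. At least 1.5-fold on this scale, 2 of 6 crossover genes were higher (Msh4 and Rnf212) and 0 lower, where 8.06% of background genes were higher and 8.79% lower. No crossover gene was 2-fold higher or lower, against 1.8% and 2.71% of background genes. All 6 genes reached 5 CPM in Alkbh1-/- and 5 of 6 in WT. Rnf212 reached 5 CPM in the Alkbh1-/- library alone, so it belongs to the background through that library. Among the crossover genes it was chosen by name, not by this floor.

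The MutS pair stood higher in Alkbh1-/-. Msh4 had 275 counts in Alkbh1-/- and 128 in WT. That is 26.6 CPM (interval 23.5 to 29.9) in Alkbh1-/- and 15.7 CPM (13.1 to 18.7) in WT, a ratio of 1.69 (interval 1.37 to 2.10) and a log2 ratio of 0.72. Of background genes, 94.9% had a lower log2 ratio than Msh4. Its partner Msh5 had 331 counts in Alkbh1-/- and 181 in WT. Msh5 stood at 32.0 CPM (28.7 to 35.7) in Alkbh1-/- and 22.2 CPM (19.1 to 25.7) in WT, a ratio of 1.44 (1.20 to 1.73) and a log2 ratio of 0.51. For Msh5, 89.5% of background genes had a lower log2 ratio.

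Mlh3, the MutL member, was the most counted of the crossover genes in both libraries and the 1 that was not higher in Alkbh1-/-. In RefSeq its span overlaps a microRNA gene and a pseudogene, and Msh4, Rnf212 and Tex11 each overlap a pseudogene too. Mlh3 had 1072 counts in Alkbh1-/- and 926 in WT. These were 103.7 CPM (97.6 to 110.1) in Alkbh1-/- and 113.8 CPM (106.6 to 121.4) in WT, with a ratio of 0.911 (0.834 to 0.996). The Mlh3 intervals overlap, and its log2 ratio of -0.13 lay near the middle of the background, with 34.7% of genes below it.

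The RING finger genes had the fewest counts. Rnf212 had 68 counts in Alkbh1-/- and 30 in WT, or 6.58 CPM (5.11 to 8.34) in Alkbh1-/- and 3.69 CPM (2.49 to 5.26) in WT. Its ratio of 1.78 (1.14 to 2.84) was the highest of the 6, with the widest interval, and the intervals of its levels overlap slightly. With the pseudocount its log2 ratio of 0.69 lay just under that of Msh4. Ccnb1ip1 had 71 counts in Alkbh1-/- and 45 in WT, or 6.87 CPM (5.36 to 8.66) in Alkbh1-/- and 5.53 CPM (4.03 to 7.40) in WT. The interval of its ratio of 1.24 (0.843 to 1.85; log2 ratio 0.27) spans 1, so a difference in Ccnb1ip1 was not detectable at this depth. Rnf212 shares its span with the long noncoding 1700047L14Rik, and Msh5 with Gm52318, in RefSeq. These have no counts of their own in the table, and the sources used here do not give whether counting used the strand, so reads of the pairs cannot be told apart.

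Tex11 had 106 counts in Alkbh1-/- and 59 in WT. It stood at 10.3 CPM (8.39 to 12.4) in Alkbh1-/- and 7.25 CPM (5.52 to 9.35) in WT, a ratio of 1.41 (1.02 to 1.98) and a log2 ratio of 0.45. The levels overlap within counting error, while the interval of the ratio lies just above 1. Tex11 is the only X-linked gene of the 6, and it lay on the other side of 0 from most of its chromosome. The 360 X-linked background genes, a comparison added after the values were seen, had a median log2 ratio of -0.35, and 30 of them exceeded WT by 1.5-fold or more while 130 were that far below it (8.33% and 36.1%). Tex11 ranked 35 from the top among them, above 90.3%. Sertoli markers moved with the X-linked genes, and their part in this was not tested.

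**Figure D1:**
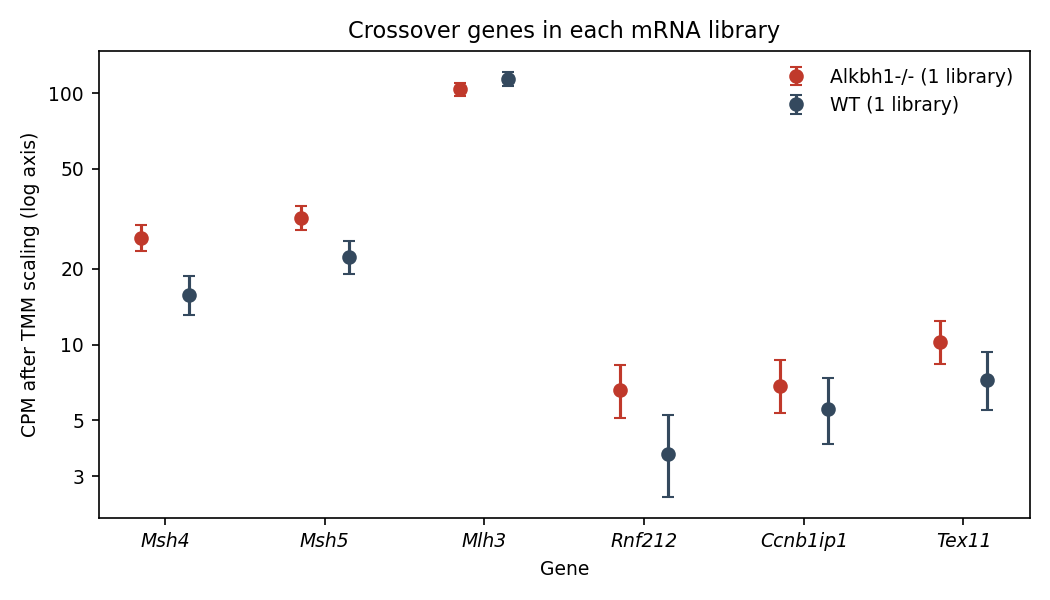
Levels of the 6 crossover genes in the Alkbh1-/- library (red, left) and the WT library (dark, right), in CPM after TMM scaling on a log axis, with bars for the 95% exact Poisson interval of each count. Msh4 stood at 26.6 CPM in Alkbh1-/- and 15.7 CPM in WT, and Msh5 at 32.0 CPM in Alkbh1-/- and 22.2 CPM in WT. Mlh3 is close in both (103.7 CPM in Alkbh1-/- and 113.8 CPM in WT).

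By counting error alone, the interval of the ratio lay above 1 for 4 of 6 crossover genes (Msh4, Msh5, Rnf212 and Tex11) and below 1 for Mlh3. For background genes these shares were 23.7% above and 26.8% below, so an interval that leaves out 1 is common between these libraries and is no sign of a genotype effect by itself. Levels were not ranked between genes, since no transcript length is in the tables used. The CPM of Mlh3 is therefore not comparable with that of Rnf212.

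Ratios between genes within a library are free of the scaling between libraries, and the change in such a ratio is free of gene length. Msh4 to Msh5 was 0.831 in Alkbh1-/- and 0.707 in WT, a ratio of ratios of 1.17 (interval 0.882 to 1.57). The balance of the MutS pair thus differed by no more than counting error, although the interval allows a shift of up to 1.57-fold. Rnf212 to Ccnb1ip1 was 0.958 in Alkbh1-/- and 0.667 in WT, which is 1.43 (0.783 to 2.65) and also within counting error. Tex11 to Msh4 gave 0.837 (0.562 to 1.25), again spanning 1.

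The balance against Mlh3 differed between the libraries by more than counting error for most genes. Msh4 to Mlh3 was 0.257 in Alkbh1-/- and 0.138 in WT, or 1.86 (1.47 to 2.35) between the libraries. For Msh5 to Mlh3 the ratio of ratios was 1.58 (1.29 to 1.94), for Rnf212 to Mlh3 1.96 (1.24 to 3.15) and for Tex11 to Mlh3 1.55 (1.10 to 2.20). Ccnb1ip1 to Mlh3 gave 1.36 (0.915 to 2.05), which spans 1, and the sum of Rnf212 and Ccnb1ip1 to Mlh3 gave 1.60 (1.18 to 2.18). The pairs with Mlh3 were set after the values were seen. How often other gene pairs differ by more than counting error was not computed, so these pairs set no gene apart.

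The meiotic MutS genes were also set beside MutS genes of mismatch repair. Summed, a comparison added after the values were seen, Msh4 and Msh5 had 606 counts in Alkbh1-/- and 309 in WT, and Msh3 and Msh6, which encode mismatch-binding proteins, had 1400 in Alkbh1-/- and 1069 in WT. The ratio of ratios of these sums was 1.497 (1.27 to 1.76). Msh4 and Msh5 each had a higher ratio between the libraries than Msh3 and Msh6, so this value had to exceed 1. It sets no gene apart.

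**Figure D2:**
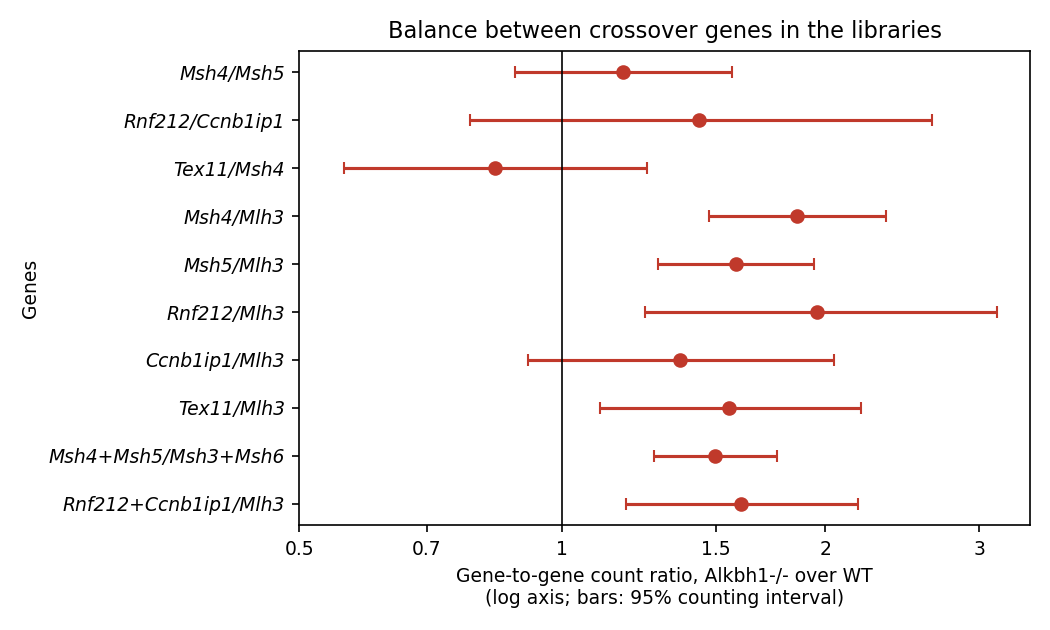
Change in the count ratio between genes, Alkbh1-/- over WT, on a log axis, with 95% exact conditional intervals for counting error. Msh4/Msh5 spans 1 (1.17), while Msh4/Mlh3 (1.86) and Msh5/Mlh3 (1.58) lie above it. Pairs with Mlh3, and the sum of Msh4 and Msh5 to that of Msh3 and Msh6, were set after the values were seen. They had to exceed 1.

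The other genes of crossing over and repair, 27 measured over 4 lists, centred on no difference. Their median log2 ratio was 0.03, with 16 above 0 and 11 below. At 1.5-fold, 1 was higher and 0 lower, against 8.06% and 8.79% of background genes. By counting error the interval of the ratio lay above 1 for 8 of 27 and below 1 for 5 of 27, near the background shares. Among 6 measured genes that act beside those described in crossing over, the median was -0.05 and none passed 1.5-fold on the log2 scale. Shoc1, which encodes a partner of the crossover machinery related to yeast Zip2, had 312 counts in Alkbh1-/- and 166 in WT (ratio 1.48, interval 1.22 to 1.80), in the range of Msh5. Hfm1, the meiotic helicase, had a ratio of 1.09 (0.983 to 1.21) and Cntd1, a cyclin-like crossover factor, 1.02 (0.933 to 1.11). Cdk2, the kinase found at crossover sites, had 0.746 (0.688 to 0.808), and Prr19, the partner of Cntd1, had 0.782 (0.717 to 0.852). These ratios lay below those of all 6 crossover genes.

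Mismatch repair genes lay nearer 0 than Msh4 and Msh5. The 8 measured had a median log2 ratio of 0.07 and a range of -0.12 to 0.42. None passed 1.5-fold in either direction. With 8.06% of background genes higher and 8.79% lower, 0 of 8 does not set this list apart. Msh3 had a ratio of 0.941 (0.844 to 1.05), Msh6 1.15 (1.02 to 1.30) and Pms2, a MutL gene of mismatch repair, 0.992 (0.721 to 1.37). Pold1, a replicative polymerase subunit, was the highest of the list at 1.35 (1.12 to 1.63).

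The 5 nuclease genes and 9 genes of helicases and their partners process intermediates in other ways. Of these, 1 was at least 1.5-fold higher and 0 lower, against 8.06% and 8.79% of background genes. The higher gene was Rmi2, a subunit of the BLM complex, with 82 counts in Alkbh1-/- and 31 in WT (ratio 2.08, interval 1.36 to 3.26). Blm itself had 1.02 (0.916 to 1.14), and Top3a 0.837 (0.753 to 0.930). Gen1 (1.43, 1.00 to 2.06) and Eme1 (1.38, 1.05 to 1.84) lay near Tex11, while Slx4 had 0.868 (0.832 to 0.906) and Mus81 0.970 (0.832 to 1.13).

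**Figure D3:**
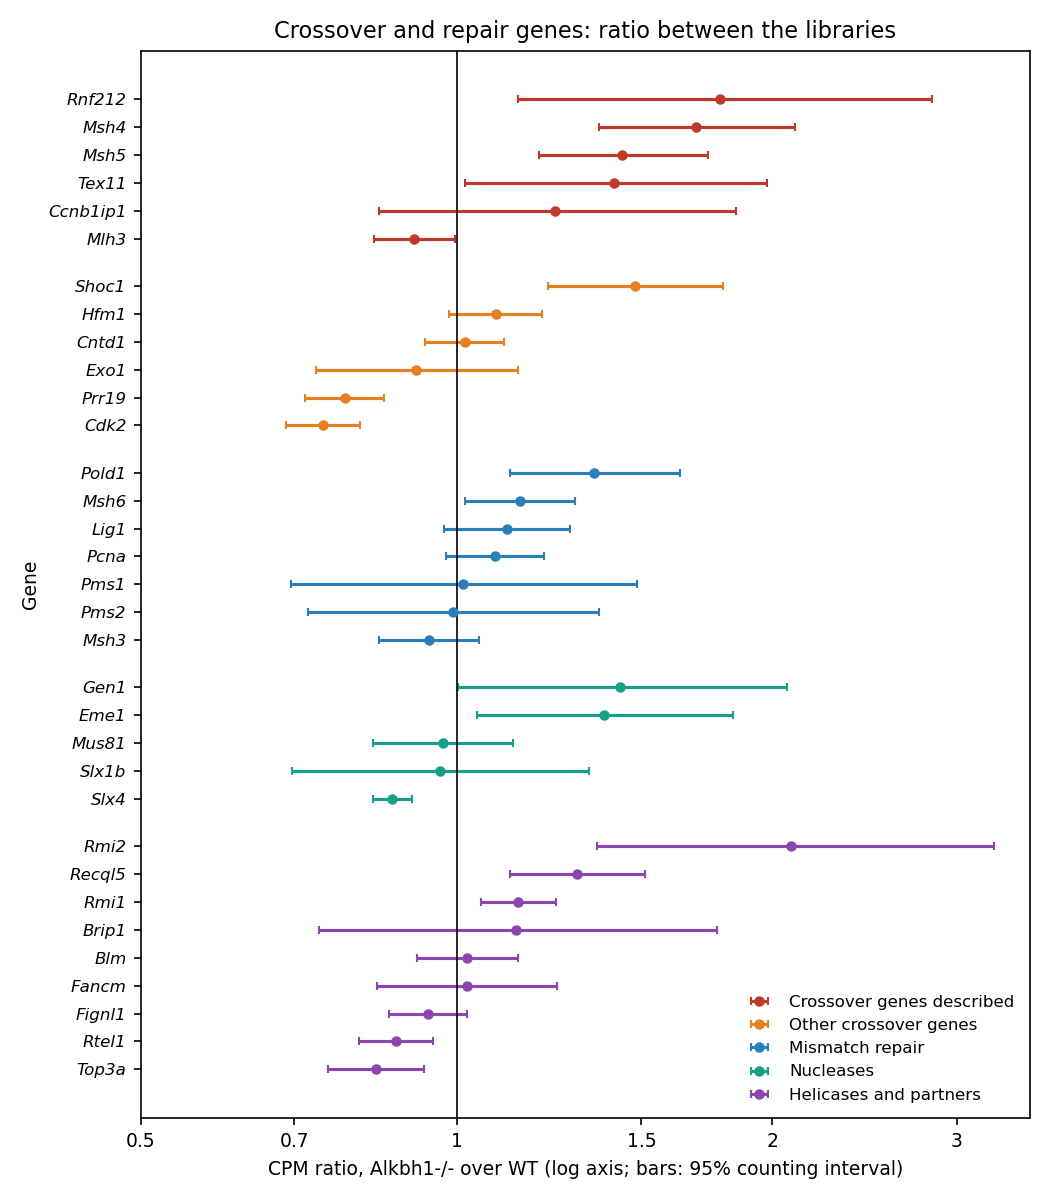
Ratio of CPM, Alkbh1-/- over WT, for the 6 crossover genes and the 27 other genes of crossing over and repair, on a log axis with 95% exact counting intervals. Exo1, which belongs to 2 lists, is drawn once. Msh4 (1.69) and Rnf212 (1.78) lie to the right of most genes, and Mlh3 (0.911) sits among those to the left of 1.

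For each of the 6, the gene of these lists with the nearest log2 ratio was named, a likeness over 2 libraries only. It was Shoc1 for Msh5 (difference 0.04) and for Rnf212 (0.15), Rmi2 for Msh4 (0.17), Exo1 for Mlh3 (0.01), Msh6 for Ccnb1ip1 (0.07) and Gen1 for Tex11 (0.01). Exo1 encodes a nuclease that works with MutL proteins. However, 1365 background genes had a log2 ratio between -0.2 and -0.1, the range that held Exo1 and Mlh3.

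Genes of earlier recombination steps were set beside the 6 crossover genes. The counts at 1.5-fold in this paragraph and the next stand against 8.06% of background genes higher and 8.79% lower. The 13 measured genes of break formation and strand invasion had a median log2 ratio of 0.34, below that of the crossover genes (0.48), and 5 exceeded WT by 1.5-fold or more, with 0 as far below. Of these 5, Prdm9 and Mei4 passed the 1 CPM floor of the list through the Alkbh1-/- library alone, so they had to be higher there. Rec114, a break formation factor, had 104 counts in Alkbh1-/- and 26 in WT (log2 ratio 1.40), and Prdm9, which places the breaks, had 40 in Alkbh1-/- and 7 in WT (1.39, or 3.87 CPM in Alkbh1-/- and 0.860 CPM in WT). The abundant Spo11, the break-making enzyme, had 0.28 and Psmc3ip -0.01. The 13 axis and synaptonemal complex genes had a median of 0.21, with 3 at least 1.5-fold higher and 0 lower. Rec8, a meiotic cohesin, had 0.75 and Tex12 0.68, near Msh4, while the abundant Stag3 had 0.04 and Sycp2 -0.08. The 12 mid to late pachytene genes had a median of -0.03, with 1 at least 1.5-fold higher and 0 lower. The most counted, Ldhc and Ybx2, had -0.22 and 0.0026. Cdc25c, a phosphatase of the meiotic division, had 164 counts in Alkbh1-/- and 76 in WT (0.71), near Msh4, and the kinase gene Aurkc had -0.33.

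Markers of other cells also differed between the libraries. Of 13 measured Sertoli genes, 12 lay below WT by 1.5-fold or more and 0 above it, the median log2 ratio being -1.04 and Sox9 at -1.73. The summed Sertoli level was 0.493 of that in WT. Of 15 measured spermatid genes, 10 exceeded WT by as much, with 0 that far below (median 0.79, summed level 2650 CPM in Alkbh1-/- and 2058 CPM in WT), with Catsper3 at 1.23, Catsper4 at 1.21 and Prm2 at 0.71. The most counted, Catsper2, had 0.19, and Prm1 (-0.05), Tnp1 (-0.35) and Tnp2 (-0.14) lay below 0. Of 9 Leydig genes, 6 were higher and 0 lower (median 0.71, summed level 260.0 CPM in Alkbh1-/- and 216 CPM in WT), with Hsd3b6 at 1.28 and Cyp17a1 at 1.11. Lhcgr, 1 of these 6, passed the list floor in Alkbh1-/- alone, and the most counted Leydig gene, Ptgds, had -0.38 and Fdx1 -0.31. Spermatogonial genes summed to 136 CPM in Alkbh1-/- and 138 CPM in WT, with a median of 0.16, 3 of 12 higher and 0 lower. Kit had 1.02 and Stra8 0.68, while the most counted, Uchl1 and Dmrt1, had -0.54 and -0.39. Peritubular myoid genes (4 measured, 2 higher and 1 lower, median 0.70) summed to 45.4 CPM in Alkbh1-/- and 60.2 CPM in WT. The sum runs against the median through Myl9, the most counted, with 207 counts in Alkbh1-/- and 374 in WT (-1.16). Blood and endothelial genes (6 measured, 3 higher and 2 lower, median 0.26) summed to 23.5 CPM in Alkbh1-/- and 25.0 CPM in WT, and 3 of the 6 passed the list floor in 1 library alone. With a list floor of 5 CPM in place of 1 CPM, the median of the blood and endothelial genes changed sign, to -0.42. The Sertoli marker Krt18 and the globin Hba-a1 had 1 count in Alkbh1-/- and 0 in WT, and the globin Hbb-b1 had 0 in Alkbh1-/- and 1 in WT. What part these cells had in the values of Msh4, Msh5, Rnf212, Ccnb1ip1 and Tex11 was not tested.

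**Figure D4:**
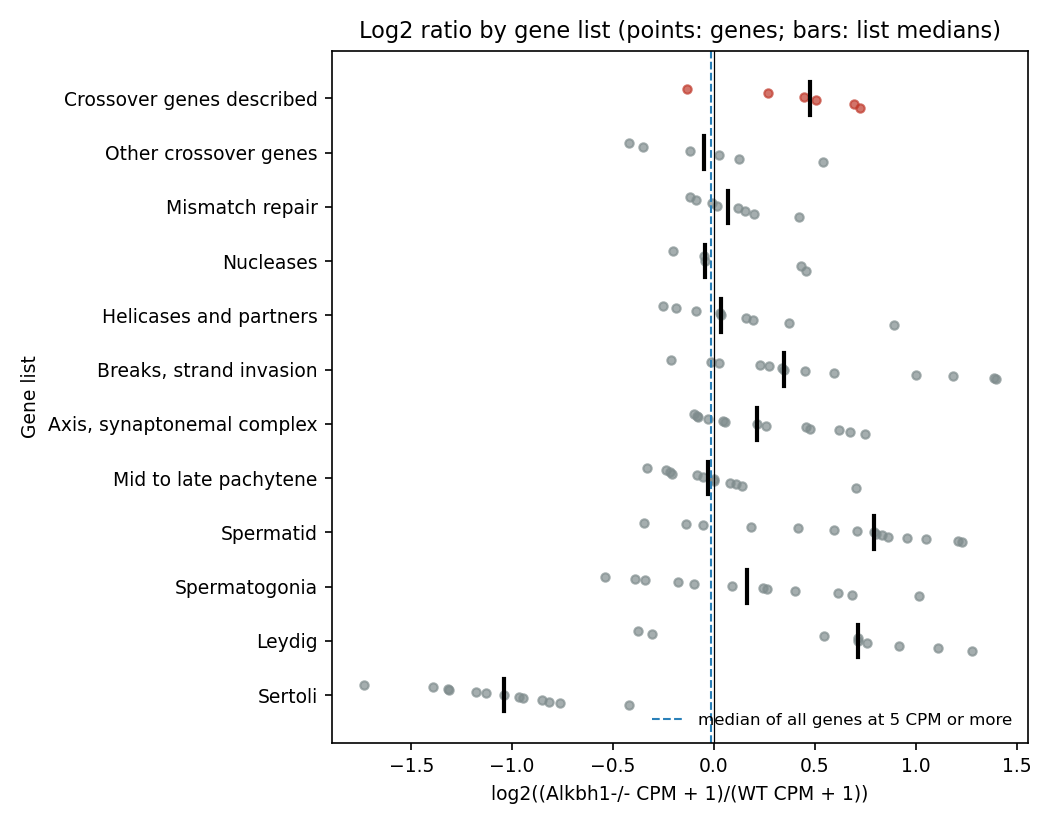
Log2 ratio, Alkbh1-/- over WT, of each measured gene in 12 lists, with a black bar for the list median and a dashed line for the median of all genes at 5 CPM or more (-0.02). By median, the crossover genes (red, 0.48) lie above the genes of breaks and strand invasion (0.34) and below the Leydig (0.71) and spermatid genes (0.79). Sertoli genes lie at the far left (-1.04).

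The axis and synaptonemal complex genes, another meiotic list, gave another reference. They did not move together, with log2 ratios from -0.10 to 0.75. With the libraries scaled to the median log2 ratio of that list, the median of all background genes moved to -0.23, and every gene of the comparison moved with it. The median of the crossover genes was then 0.28, with Msh4 at 0.52, Rnf212 at 0.51, Msh5 at 0.30, Tex11 at 0.26, Ccnb1ip1 at 0.09 and Mlh3 at -0.34. The same 5 genes lay above 0, but none reached 1.5-fold, where 3.97% of background genes did. Relative to the median of all genes the crossover genes kept their distance, as this scaling shifts all genes nearly alike.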

How the data were processed

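mRNA of pachytene spermatocytes was selected with oligo(dT) from 1.6 µg (Alkbh1-/-) and 1 µg (WT) of RNA over 200 nt, amplified over 15 PCR cycles and read as 75 bp paired ends, per the labels' protocols. The authors deposited counts of reads for each Ensembl gene, as whole numbers. The submitters' processing notes name CASAVA 1.3, TopHat, Novoalign and bedtools and the build mm9 but no roles, and the counting tool and its strand use are not given there. Of 21310 identifiers, 19848 (93.1%) matched a symbol.

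Counts were scaled by TMM (edgeR 4.0.16, R 4.3.3) to CPM, and log2 ratios used a pseudocount of 1 CPM, which understates the change of low genes. Ratios have exact conditional binomial (Clopper-Pearson) 95% intervals, levels exact Poisson intervals, and ratios of ratios exact conditional (Fisher) intervals. There was no test with 1 library per genotype. The background was genes that reached 5 CPM in either library, and list members needed 1 CPM in at least 1 library. Other software was DESeq2 1.42.0, scipy 1.17.1 and Python 3.11.15. Alternatives were pseudocounts of 5 and 0.1 CPM, other scalings and other floors. The calculation was tested on simulated data.

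The members and lists were chosen with earlier results of these data known. The rule for named genes took the 6 crossover genes and any gene of the 4 pathway lists. From each other list it took the 2 with most counts and the 2 with the largest absolute log2 ratio at 20 or more summed counts. A few others were named after their values were seen, as the only markers at 0, as passing the list floor in 1 library, or as spermatid and Leydig genes below 0. Likeness was to be measured on levels per kb. With no transcript lengths at hand, the difference in log2 ratio was used in its place. Spo16, Rnf212b, Eme2 and 6 other list genes without a matching identifier were not analysed here. Some planned genes and gene pairs are not reported here.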

Additional observations from a re-analysis of the deposited data

How the results depend on the processing

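The signs of the 6 log2 ratios were the same under all alternatives tried, but few of these could have changed a sign. A pseudocount cannot do so. Library totals and DESeq2 size factors barely shifted the libraries, with the median of all background genes at 0.01 and -0.02. Msh4 ranged from 0.52 to 0.75, Rnf212 from 0.41 to 0.82, Msh5 from 0.30 to 0.54, Tex11 from 0.26 to 0.49, Ccnb1ip1 from 0.09 to 0.31 and Mlh3 from -0.34 to -0.10, and the median of the 6 from 0.28 to 0.51. The count at 1.5-fold was less stable. With a pseudocount of 5 CPM, 1 crossover gene was at least 1.5-fold higher (background 4.59%) and 0 other pathway genes were. Scaled on the axis and synaptonemal complex list, 0 crossover genes were (background 3.97%). By construction, the larger pseudocount draws log2 ratios toward 0 and the other scaling lowers them. Among background genes with a mean under 50 CPM, an alternative chosen after seeing the data, 10.9% were at least 1.5-fold higher, and with a floor of 20 CPM 5.54% were. Of 151 recomputed values, 144 stayed within a set limit, which was 1.5 times for counts and counting error for log2 ratios. For medians the limit came from the counting error of the 6 crossover genes, not of the median itself. It is wide for medians of many genes. The median of all background genes counted as unmoved when it went from -0.02 to -0.23. The alternative that used coding length was not run, since no lengths were at hand. No paired analysis was possible because each genotype has 1 mRNA library. Counts of 30 to 106 limit Rnf212, Ccnb1ip1 and Tex11 most.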
